A study of Mus musculus with 4 samples.

Results

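Embryonic-myosin spots are places in the injured mouse Achilles region where the transcriptome held the most RNA of the developmental contractile genes Myh3, Myh8, Myl4 and Actc1. Each spot of a Visium array is a small barcoded area that can hold several cells or parts of cells, and its values are counts of unique molecular identifiers (UMIs). A spot was eligible with at least 1000 UMIs and at least 2 UMIs of Myh3 and Myh8 together. Eligible spots were ranked by a score, the UMIs of the 4 genes as a percentage of the spot's UMIs, and the 400 highest over all sections were taken, out of 10662 tissue spots. There were 4 sections of 10 µm, 2 per group. The F592A group was TrkA F592A mice treated with 1NMPP1, a substitution that makes the nerve growth factor receptor kinase TrkA sensitive to that drug. The WT group was TrkA WT mice labelled as control, and the labels do not say whether these received the drug, so genotype and drug cannot be told apart. All mice were 12 weeks old, of both sexes, received buprenorphine and isoflurane, and were sampled 14 days after a punch biopsy of 0.5 mm in the Achilles tendon. The labels give 4 pooled mice per genotype without tying sections to animals. No p-value can therefore be said to measure the spread between animals, and the spread between sections may be technical.

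Vertebrate muscle fibres swap isoforms of their contractile proteins as they mature. Embryonic and neonatal fibres use the myosin heavy chains of Myh3 and Myh8, the light chain of Myl4 and the cardiac actin of Actc1, and adult fibres use Myh1, Myh2, Myh4 and Myh7. After injury satellite cells divide, differentiate under myogenic factors such as Myod1 and Myog and fuse into new fibres, which pass through the developmental isoforms again.

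The tissue spots held 30154873 to 43957617 UMIs per section, with a median of 5465 and 6536 UMIs per spot in F592A 1 and F592A 2, and of 5971 and 7925 in WT 1 and WT 2. The sections differed in sex-linked RNA: Xist gave 4207 UMIs in WT 2 and 7 to 12 in the other sections, and 4 Y-linked genes gave 23 UMIs in WT 2 and 7522 to 7918 in the others. The arrays share 1 set of barcodes by construction, so pairs of sections had 994 to 2429 barcodes in common, at positions of different tissue.

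Almost all members lay in the WT sections. F592A 1 held 4 of them and F592A 2 held 0, against 334 in WT 1 and 62 in WT 2. As a share of spots with at least 1000 UMIs, members were 0.142% in F592A 1 (exact 95% binomial interval 0.0387 to 0.363%) and 0% in F592A 2, where a count of 0 allows up to 0.109%. They were 11.1% in WT 1 (10.0 to 12.3%) and 3.10% in WT 2 (2.38 to 3.96%). These intervals cover counting error only, and spots of 1 section are not independent. The mean share was 0.0709 ± 0.100% in F592A and 7.10 ± 5.66% in WT (SD, n = 2 each), -7.03 percentage points apart (two-sided exact permutation test over sections, p = 0.33, and no lower p is possible with 2 sections in each group). The groups did not overlap, and WT 1 alone held 83.5% of the members. Adult muscle spots, non-members in which Myh1, Myh2, Myh4 and Myh7 made up at least 0.5% of UMIs, numbered 1380 and 1191 in F592A 1 and 2, and 1223 and 564 in WT 1 and 2.

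**Figure D1:**
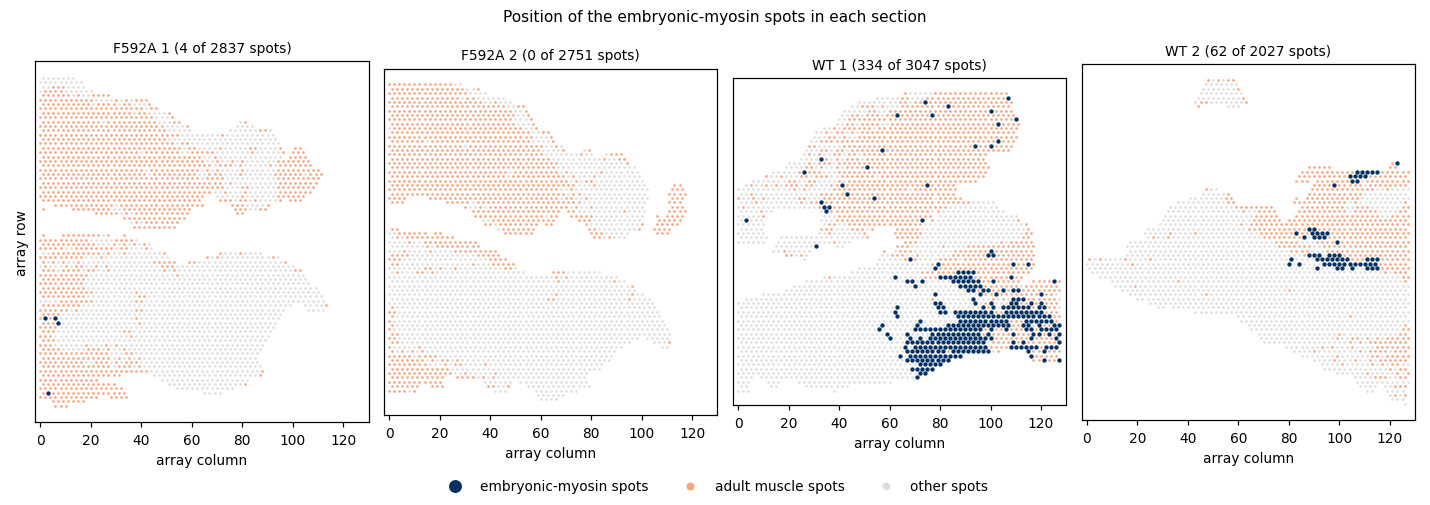
Array positions of all tissue spots in the 4 sections, with embryonic-myosin spots in dark blue, adult muscle spots in orange and other spots in grey. The 334 spots of WT 1 and the 62 of WT 2 form bands beside adult muscle, F592A 1 shows 4 spots at its left edge and F592A 2 shows 0.

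The score chose these spots, so the levels of its 4 genes are a description without a test. Levels here are CPM, the UMIs of a gene summed over the spots and scaled to the same total of UMIs for every set of spots. Myh3, the embryonic myosin heavy chain, was at 62.5 CPM in the 4 spots of F592A 1, 782 CPM in those of WT 1 and 641 CPM in those of WT 2. Myh8, the perinatal heavy chain, was at 369.8, 434 and 338 CPM in the same sections, Myl4, the embryonic and atrial light chain, at 739.6, 1159 and 1035 CPM, and Actc1 at 443, 841 and 387 CPM. Adult muscle spots of WT 1 and WT 2 held 62.4 and 57.1 CPM of Myh3, so the developmental isoforms were not confined to members. Over all members the score had a median of 0.167% and a maximum of 1.51%. The last 3 spots inside the limit scored 0.0937, 0.0934 and 0.0934%, from 17, 11 and 8 UMIs of the 4 genes, and the first 3 outside scored 0.0930% each, from 15, 7 and 12 UMIs, so the edge falls in a continuous range. Some shallow members of WT 1 rest on the minimum of 2 UMIs. An example is a spot of 1217 UMIs with 1 of Myh3, 1 of Myh8 and 0 of Myl4 and Actc1. By their medians members were deeper than adult muscle spots, at 13834 and 15552.5 UMIs in WT 1 and WT 2, against 4229 and 7423 UMIs in adult muscle spots.

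Developmental isoforms of heart and skeletal muscle overlap, so the spots were checked against genes of heart muscle and against Sln, the fifth marker of the label, which the score did not use. Of 6 heart genes, 3 were at 0 UMIs in all members, among them Nppa and Myl7. The 6 together made up 0.000243% of the UMIs of WT 1 members and 0.000233% of those of WT 2, against 0.000407 and 0.000388% in adult muscle spots. Sln, a small inhibitor of the sarcoplasmic reticulum calcium pump that is high in immature muscle, was at 328 and 389 CPM in the members of WT 1 and WT 2, and at 293 and 432 CPM in the adult muscle spots. Sln did not pass in the test of members against adult muscle of the same 2 sections (log2 fold change -0.24 ± 0.24, adjusted p = 0.511). Most members also carried adult myosin: 214 of 334 in WT 1, 45 of 62 in WT 2 and all 4 in F592A 1 were above the 0.5% used for adult muscle spots.

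Promoters are shown for Myh3, Myh8 and Actc1, which help define the spots, and for Myog and Chrng, which were higher in them than in adult muscle. RNA of these genes was found in the same spots. RefSeq tables (GRCm38.p6) held 8 of 11 genes looked for. The 250 bases before the start were searched on both strands for the E-box CANNTG, to which myogenic factors bind, and its form CAGCTG. The MEF2 site was searched as YTAWWWWTAR and the CArG box as CCWWWWWWGG (Y is C or T, W is A or T, R is A or G). Capitals mark exact matches. Near matches are not marked or counted, such as ctatatttat in Myog, which misses the MEF2 pattern at its last base.
Myh3, chr11:67078050-67078299, plus strand: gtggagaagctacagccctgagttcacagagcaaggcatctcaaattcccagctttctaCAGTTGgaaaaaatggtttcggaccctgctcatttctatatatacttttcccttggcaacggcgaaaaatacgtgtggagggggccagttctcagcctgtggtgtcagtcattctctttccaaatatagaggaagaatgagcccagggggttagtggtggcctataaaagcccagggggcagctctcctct
Myh8, chr11:67276874-67277123, plus strand: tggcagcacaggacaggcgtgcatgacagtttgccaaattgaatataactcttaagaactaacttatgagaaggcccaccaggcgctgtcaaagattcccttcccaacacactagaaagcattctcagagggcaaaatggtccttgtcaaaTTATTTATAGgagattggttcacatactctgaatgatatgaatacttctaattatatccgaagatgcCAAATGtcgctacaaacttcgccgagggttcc
Actc1, chr2:114052876-114053125, minus strand: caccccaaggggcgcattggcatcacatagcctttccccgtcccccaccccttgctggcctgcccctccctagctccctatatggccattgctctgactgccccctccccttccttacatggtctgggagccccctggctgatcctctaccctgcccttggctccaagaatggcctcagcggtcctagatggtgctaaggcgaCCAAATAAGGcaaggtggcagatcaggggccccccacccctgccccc
Myog, chr1:134289754-134290003, plus strand: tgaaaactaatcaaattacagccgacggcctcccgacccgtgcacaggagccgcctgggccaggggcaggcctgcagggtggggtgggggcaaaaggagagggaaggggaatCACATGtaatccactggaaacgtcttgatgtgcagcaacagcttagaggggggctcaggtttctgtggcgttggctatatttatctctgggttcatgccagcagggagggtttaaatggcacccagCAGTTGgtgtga
Chrng, chr1:87205561-87205810, plus strand: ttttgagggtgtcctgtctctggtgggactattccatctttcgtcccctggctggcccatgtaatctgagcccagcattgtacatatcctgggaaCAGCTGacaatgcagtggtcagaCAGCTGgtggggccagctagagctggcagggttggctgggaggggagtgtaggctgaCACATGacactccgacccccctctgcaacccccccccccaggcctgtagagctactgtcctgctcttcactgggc
The matches differ between the genes. Myl4, the other gene of the score, has 0 matches to any of these motifs in this window and is not shown. Counted by their first base, Myh3 has 1 E-box 191 bases before its start, Myh8 has 1 at 32 bases and a MEF2 site at 99 bases, and Actc1 has a CArG box at 47 bases and no E-box in this window. Myog has E-boxes at 138 and 12 bases, and Chrng has 3, of which those at 155 and 132 bases read CAGCTG. Over the 8 genes, CANNTG was found in 6, CAGCTG in 3, the MEF2 site in 1 and the CArG box in 1. Among 32851 RefSeq promoters of the same length, 66.2% hold CANNTG, 13% CAGCTG, 2.92% the MEF2 site and 1.47% the CArG box. A match is a string of letters and does not show binding.

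Members lay together in bands. A spot has up to 6 neighbours on the array, and 63.5% of the tissue neighbours of WT 1 members and 52.5% of those of WT 2 members were members too, against 11 and 3.06% of all tissue spots of the 2 sections. WT 1 members formed 51 connected patches, of which the largest held 230 spots and 38 were single spots. WT 2 members formed 11 patches, with 33 spots in the largest and 7 single spots. In F592A 1 the 2 highest-scoring members touched, the fourth was 2 steps from the first, and the third lay 16 or 17 steps from the others.

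Levels of genes outside the score differed with distance from the members. Myog, the factor of terminal muscle differentiation, was at 142 CPM in WT 1 members and at 22.1, 14.6, 8.91 and 3.10 CPM at 1, 2, 3 and 4 to 6 steps from the nearest member. In WT 2 it was at 113 CPM in members and at 17.0, 8.41, 5.09 and 4.16 CPM at the same distances. Adult muscle spots made up 63.8 and 60.0% of the spots at the first step in WT 1 and WT 2. Sln was, from members outwards, at 328, 189, 109, 56.9 and 37.1 CPM in WT 1 and 389, 325, 293, 195 and 151 CPM in WT 2. Tnmd, a membrane protein of tendon cells, was higher at 1 step than in members, at 1964 against 1143 CPM in WT 1 and 1744 against 1408 CPM in WT 2. Each WT section is 1 sample, and these profiles were not tested.

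**Figure D2:**
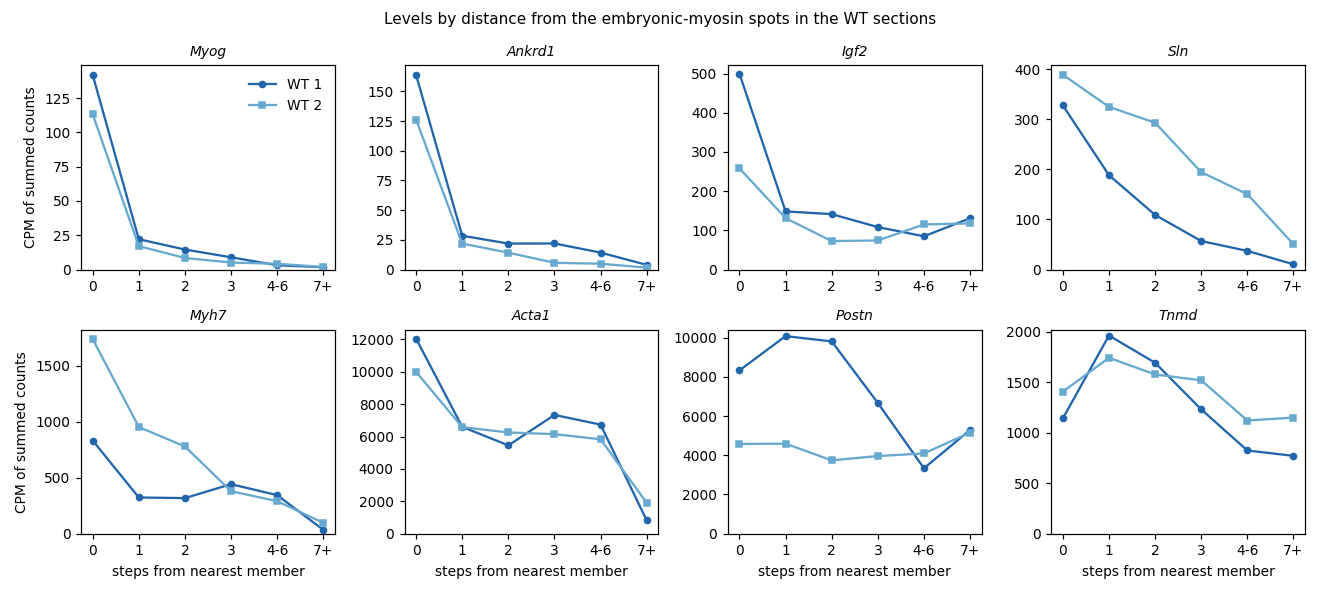
CPM of 8 genes in WT 1 and WT 2 by array steps from the nearest embryonic-myosin spot (0 is the members themselves). Myog is at 142 and 113 CPM in members of WT 1 and WT 2 and at 22.1 and 17.0 CPM at 1 step, and Tnmd is higher at 1 step than in members in both sections.

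The next comparison asked which other genes set these spots apart from mature muscle of the same section. UMIs were summed over members and over adult muscle spots in WT 1 and WT 2, the sections with at least 20 members, and tested with edgeR's quasi-likelihood test with the section as a block. Values in this comparison are CPM scaled for library composition, and each log2 fold change is members over adult muscle with its standard error (SE). Of 13013 genes tested, 2899 passed at an adjusted p under 0.05, or 22.3%, with 1243 higher (9.55%) and 1656 lower (12.7%). The median log2 fold change over all genes was 0.03. The fit has 1 residual degree of freedom per gene, and edgeR put all weight on the spread shared by all genes, so the small p-values below do not come from the spread of each gene between 2 sections. DESeq2 called 681 genes (5.23%). In sums over spots, fewer cells of a type and less RNA per cell cannot be told apart. The 8 genes that chose the 2 kinds of spot are left out of all counts, and the other genes were read in the same chosen spots.

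Among myogenic regulators, 3 of 11 tested genes rose and 4 fell, with a median log2 fold change of -0.43. Myog was at 129 and 105 CPM in members of WT 1 and WT 2, against 13.5 and 12.5 CPM in adult muscle, a log2 fold change of 3.17 ± 0.23 (adjusted p = 9.43e-41). The members were higher in both sections. Msc, a repressor related to Myod1, rose by 1.64 ± 0.32 (adjusted p = 8.18e-06), and Myod1, the factor that commits cells to the muscle lineage, by 0.77 ± 0.24 (adjusted p = 0.00846). Neither passed with DESeq2, at adjusted p = 0.0521 for Msc and 0.473 for Myod1. Myf6, the factor most abundant in adult fibres, was at 66.4 and 47.5 CPM in members and 103 and 72.2 CPM in adult muscle and fell by 0.62 (SE 0.21, adjusted p = 0.0165, and 0.291 with DESeq2). Of 9 satellite cell genes 0 passed with edgeR and 0 with DESeq2, and 3 had an unadjusted p under 0.05. All 9 had positive log2 fold changes, with a median of 0.45. Pax7, the satellite cell factor, gave 14 and 1 UMIs in members against 11 and 8 UMIs in adult muscle, too few for the test. Of 11 cell cycle genes 0 passed with either tool and 0 had an unadjusted p under 0.05, with a median of 0.04. Top2a, a topoisomerase of dividing cells, was at 14.6 and 11.5 CPM in members and 18 and 15.2 CPM in adult muscle.

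Of 9 fusion genes 5 rose and 0 fell, with a median log2 fold change of 0.77. Mymk, which encodes the fusion protein myomaker, was at 109 and 63.4 CPM in members, against 11.1 and 3.35 CPM in adult muscle, and had a log2 fold change of 3.60 ± 0.24 (adjusted p = 1.8e-45). Mymx, the second component of the fusion machinery, gave 202 and 17 UMIs in members and 10 and 1 UMIs in adult muscle (log2 fold change 4.02 ± 0.42, adjusted p = 1.35e-19). Both sections showed more in members, and the adult value of WT 2 rests on 1 UMI. Cav3, the muscle caveolin, rose by 0.98 ± 0.20, Cdh2, a cadherin, by 0.77 ± 0.20 and Kirrel by 0.80 ± 0.22. Cdh2 and Kirrel did not pass with DESeq2 (adjusted p = 0.232 and 0.297).

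Of 12 genes of the acetylcholine receptor and the neuromuscular junction, 6 rose and 0 fell, with a median of 0.87. Chrng, the gamma subunit of the fetal receptor, gave 160 and 28 UMIs in members and 12 and 2 UMIs in adult muscle, with a log2 fold change of 3.71 ± 0.39 (adjusted p = 9.43e-19). Chrna1, the alpha subunit of fetal and adult receptors, was at 111 and 43.2 CPM in members and 36.5 and 19.9 CPM in adult muscle (log2 fold change 1.42 ± 0.21, adjusted p = 1.44e-09). Chrnd, the delta subunit, rose by 1.62 ± 0.41, Colq, which anchors acetylcholinesterase, by 1.37 ± 0.27, and Ncam1, an adhesion molecule of immature and denervated fibres, by 1.02 ± 0.21. Chrnd and Colq did not pass with DESeq2 (adjusted p = 0.144 and 0.0567). Chrne, the epsilon subunit of the adult receptor, named after its values were seen, was at 14.9 and 4.32 CPM in members against 5.28 and 6.93 CPM in adult muscle. Its 2 sections went opposite ways, and it did not pass (adjusted p = 0.0601).

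Contractile isoforms outside the score went in both directions. Tnnt2, the troponin T of heart and embryonic skeletal muscle, was at 198 and 140 CPM in members and 23.4 and 12.1 CPM in adult muscle, a log2 fold change of 3.27 ± 0.23 (adjusted p = 1.06e-41). Mybph, a myosin-binding protein, rose by 1.31 ± 0.21, Myl6b, a slow light chain, by 0.94 ± 0.23 and Tnni1, slow troponin I, by 0.79 ± 0.25. Myl6b and Tnni1 did not pass with DESeq2 (adjusted p = 0.201 and 0.0723). Tnnt1, slow troponin T, and Tnnc1, slow troponin C, had log2 fold changes of -0.32 and 0.37 and did not pass. Of 8 slow muscle genes outside the adult rule, 1 rose and 1 fell, with a median of -0.17. The gene that fell was Myl3, a slow light chain, by 1.21 (SE 0.29, adjusted p = 0.000359, and 0.597 with DESeq2). It was at 535 and 493 CPM in members against 2285 and 608 CPM in adult muscle. Of 12 fast muscle genes outside the adult rule, 11 fell, with a median of -1.78. Mybpc2, fast myosin-binding protein C, was at 159.8 and 179 CPM in members against 982 and 768 CPM in adult muscle (log2 fold change -2.37 ± 0.26, adjusted p = 6.95e-17). Myoz1 and Actn3, proteins of the fast Z-disc, had log2 fold changes of -1.98 ± 0.25 and -1.77 ± 0.28, and Pvalb, a calcium buffer of fast fibres, -2.20 ± 0.34. Adult muscle spots were chosen by adult myosin and members were not, so the direction of genes that go with adult myosin is fixed in part by that choice. Of 8 general skeletal muscle genes, some also in the fast list, 6 fell and 0 rose, with a median of -1.63. Their share was 2.87 and 2.32% in members of WT 1 and WT 2 against 6.49 and 4.81% in adult muscle. Falls of single muscle genes, here and below, cannot be told apart from less muscle RNA in the spots.

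Of 11 calcium-handling genes 6 fell and 1 rose, with a median of -1.09. The gene that rose was Casq2, the calsequestrin of heart and slow or immature muscle, at 243 and 176 CPM in members against 72.7 and 60.8 CPM in adult muscle (log2 fold change 1.64 ± 0.22, adjusted p = 5.22e-12). Casq1, the fast fibre calsequestrin and named after its values were seen, had -1.04 ± 0.27, Atp2a1, the fast fibre calcium pump and likewise named, -1.78 ± 0.35, Mrln, a pump inhibitor, -2.07 ± 0.23, and Trdn, triadin of the release complex, -1.98 ± 0.29. Of 13 genes of glycolysis and glycogen 10 fell and 1 rose, with a median of -1.06. Pygm, muscle glycogen phosphorylase, had -1.76 ± 0.28 and Phka1, a subunit of its kinase, -1.72 ± 0.22. Eno1, the enolase of most tissues, was at 68.3 and 51.1 CPM in members and 29.5 and 23.3 CPM in adult muscle (1.18 ± 0.21, adjusted p = 4.5e-07), while Eno3, the muscle enolase and named after its values were seen, had -1.27 ± 0.29. Of 11 genes of translation and ribosome biogenesis 1 rose and 2 fell, with a median of 0.04. Rpl3l, a ribosomal protein of mature striated muscle, had -1.85 ± 0.23, and its ubiquitous relative Rpl3 0.64 ± 0.25 (adjusted p = 0.043, lost with scaling by another method, at adjusted p = 0.0560).

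**Figure D3:**
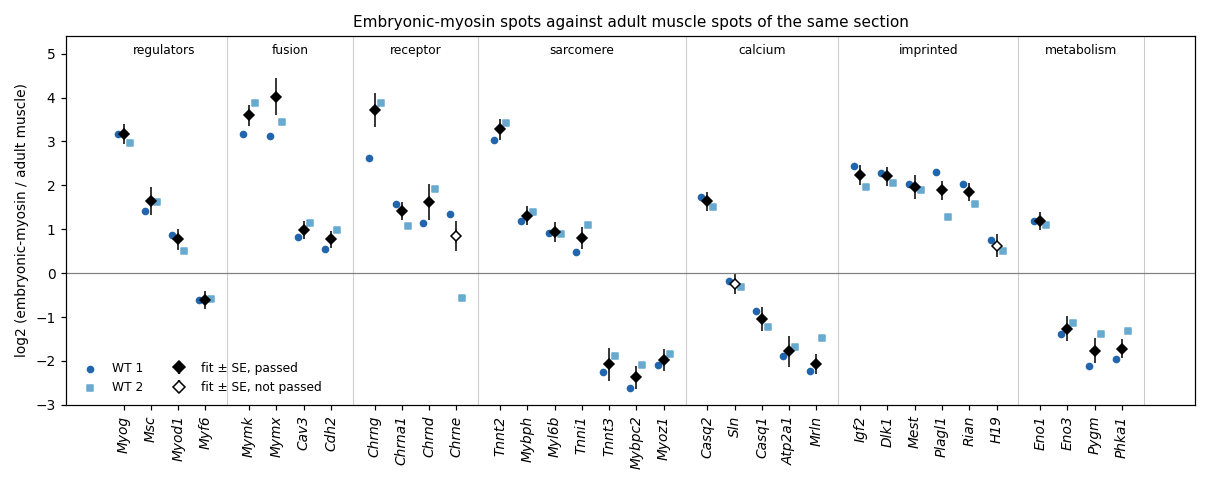
Log2 ratio of embryonic-myosin to adult muscle spots for genes grouped by role. Blue points are the ratios within WT 1 and WT 2 (after adding 1 CPM), diamonds the fitted log2 fold change with its SE, filled where it passed. The plotted genes are examples and not whole lists. Among them those headed regulators, fusion, receptor and imprinted lie above 0 except Myf6 and, in WT 2, Chrne, and Tnnt3, Mybpc2 and Myoz1 lie below 0.

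Of 14 imprinted and growth genes 9 rose and 1 fell, with a median of 1.16. Igf2, an embryonic growth factor, was at 455 and 239.9 CPM in members, against 83.0 and 60.4 CPM in adult muscle, a log2 fold change of 2.23 ± 0.23 (adjusted p = 4.33e-19). Dlk1, a membrane protein of the Notch ligand family, rose by 2.21 ± 0.22, Mest, a hydrolase, by 1.97 ± 0.27, Plagl1, a zinc finger factor, by 1.89 ± 0.21 and Rian, a noncoding RNA, by 1.85 ± 0.21. AW551984, named by size of change, rose by 2.14 ± 0.22. H19, the noncoding neighbour of Igf2, was at 991 and 769 CPM in members and 588 and 544 CPM in adult muscle and did not pass (0.63 ± 0.26, adjusted p = 0.0671). Mstn, which restrains muscle growth, was the gene that fell, at 34.7 and 49.7 CPM in members against 88.5 and 72.9 CPM in adult muscle, and did not pass with DESeq2 (adjusted p = 0.0622).

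Genes of denervation and fibre stress moved in both directions. Of 14 denervation and atrophy genes, which share Chrng, Chrna1, Ncam1 and Myog with the lists above, 8 rose and 3 fell, with a median of 0.71. Cdkn1a, a cell cycle inhibitor, was at 153 and 142 CPM in members against 43.4 and 59.7 CPM in adult muscle (1.54 ± 0.21, adjusted p = 2.33e-11). Of 14 remodelling and stress genes 2 rose and 5 fell, with a median of -0.37. Those that rose were Ankrd1, a titin-associated ankyrin repeat protein, at 149 and 117 CPM in members against 46.5 and 16.3 CPM in adult muscle (2.17 ± 0.22, adjusted p = 3.14e-21), and Nes, the intermediate filament nestin, by 1.18 ± 0.21. Xirp2, a protein of the intercalated disc and myotendinous junction, had -1.83 ± 0.26. Csrp3, a stress-responsive LIM protein, did not pass (-0.45 ± 0.25), and its log2 ratios were -0.97 in WT 1 and 0.09 in WT 2.

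Markers of other cells moved with this comparison. All 9 macrophage genes rose, with a median of 1.00, and together they made up 0.276 and 0.337% of member UMIs in WT 1 and WT 2 against 0.0966 and 0.150% of adult muscle UMIs. Of 8 tenocyte genes 3 rose, Tnmd, Scx and Thbs4, and their summed share was 0.418 and 0.537% against 0.165 and 0.364%. Of 8 wound matrix genes 3 rose, Postn, Tnc and Lox, the other 5 had positive log2 fold changes, and their share was 9.12 and 10.7% against 4.07 and 8.63%. Of 6 myotendinous junction genes 3 rose and 1 fell, with shares of 0.247 and 0.280% against 0.0920 and 0.168%. Of 7 smooth muscle and mural genes 3 rose and 1 fell, with shares of 0.140 and 0.0917% against 0.0817 and 0.0821%. Of 5 adipocyte genes 4 fell, with shares of 0.0368 and 0.0305% against 0.0572 and 0.0430%. All 6 keratinocyte genes fell, with a summed share of 0.0233 and 0.0100% in members against 0.142 and 0.0371% in adult muscle, and the 10 genes that fell most, Krt15, 2310065F04Rik, Dmkn, Krtdap, Lor, Krt1, Amd1, Calm4, Fam25c and Krt2, were mostly genes of the epidermis. All 5 erythroid genes fell, with shares of 0.194 and 0.505% in members against 0.709 and 0.578%. Of 7 Schwann cell genes 4 fell. The part of these cells in the results above was not tested. Among spots of at least 5000 UMIs, a limit chosen after the data were seen, 2290 genes passed, 2170 of them among the 2899.

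Within the members, levels of other genes were set beside the score that chose the spots, as a description. Over the 334 spots of WT 1 and the 62 of WT 2, which share a library and its neighbours' RNA, Spearman's rho with the score was 0.50 and 0.44 for Igf2, 0.48 and 0.49 for Mymk, 0.44 and 0.44 for H19, 0.38 and 0.46 for Myog, and 0.43 and 0.35 for Tnni1. It was -0.26 and -0.38 for Myh4, the fastest adult myosin, 0.18 and 0.08 for Sln, and 0.05 and 0.00 for Myh7, the slow myosin. The spots' total UMIs went with the score as well, at 0.40 and 0.30. Set out as the upper and lower 167 spots of WT 1 by score, Mymk was at 162 and 48.8 CPM, Igf2 at 638 and 266 CPM and Sln at 325 and 332 CPM. In the upper and lower 31 spots of WT 2, Mymk was at 97.6 and 20.4 CPM, Igf2 at 319 and 159 CPM, Sln at 341 and 467 CPM, Myh7 at 1479 and 2156 CPM and Csrp3 at 517 and 641 CPM. Csrp3 was at 487 and 314 CPM in the upper and lower spots of WT 1, so its summed levels went opposite ways in the 2 sections. Across single spots its rho with the score was positive in both, at 0.26 in WT 1 and 0.20 in WT 2. Myh3 and Myh8 were both present in 270 of 334 members of WT 1 and 51 of 62 of WT 2, with Myh3 alone in 45 and 9 and Myh8 alone in 19 and 2.

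Under the same eligibility, 54 spots of F592A 1 and 22 of F592A 2 qualified, against 690 of WT 1 and 220 of WT 2, and the highest score in F592A 2 was 0.0268%. The 4 members of F592A 1 held 53049, 120917, 8689 and 9335 UMIs, and together gave 12 UMIs of Myh3, 71 of Myh8, 142 of Myl4 and 85 of Actc1. One of them held all 16 Myog UMIs, and Sln gave 3 UMIs, or 15.6 CPM, against 328 and 389 CPM in the members of WT 1 and WT 2. Their adult fast myosin Myh4 stood at 4433 CPM, against 2309 and 2779 CPM. With 4 spots, 2 of them touching and 1 lying 16 or 17 steps from the others, this is a description of 1 section.

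Myh3 made up a smaller part of the developmental myosins in both F592A sections than in both WT sections. Over all spots of at least 500 UMIs, Myh3 gave 85 and 25 UMIs in F592A 1 and 2, and Myh8 gave 331 and 174. In WT 1 and WT 2, Myh3 gave 7401 and 1407 UMIs and Myh8 4127 and 705. Myh3 was thus 20.4% of their sum in F592A 1 (exact 95% binomial interval 16.7 to 24.6%) and 12.6% in F592A 2 (8.30 to 18%), and 64.2% in WT 1 (63.3 to 65.1%) and 66.6% in WT 2 (64.6 to 68.6%). The means were 16.5 ± 5.56% in F592A and 65.4 ± 1.71% in WT, -48.9 percentage points apart. This is a description, since both genes were used to choose the members. With 2 sections in each group a two-sided exact permutation test could give no p under 0.33. The shares did not overlap. Outside the members they were 21.9 and 12.6% in F592A 1 and 2, against 63.9 and 68.3% in WT 1 and 2.

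**Figure D4:**
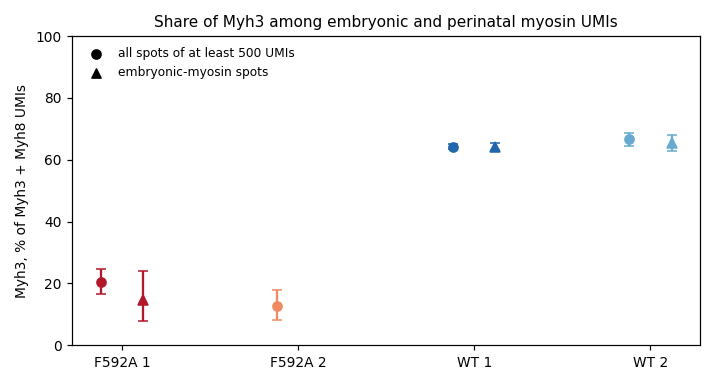
Share of Myh3 in the UMIs of Myh3 and Myh8 per section, for all spots of at least 500 UMIs (circles) and for embryonic-myosin spots (triangles), with exact 95% binomial intervals. Both F592A sections lie at 12.6 to 20.4% and both WT sections at 64.2 to 66.6%, and F592A 2 has no triangle because it has 0 members.

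These genes were compared between the groups on sums over muscle spots, members and adult muscle spots together. The spots numbered 1384 and 1191 in F592A 1 and 2 and 1557 and 626 in WT 1 and 2. Of these, 4 and 0 were members in F592A 1 and 2, and 334 and 62 in WT 1 and 2. Of 13730 genes, 586 passed edgeR's quasi-likelihood test (4.27%), 399 higher in F592A (2.91%) and 187 lower (1.36%), and DESeq2 called 825 (6.01%). The groups did not overlap for 56.7% of all genes, and both F592A sections lay below both WT sections for 28.6%. The sums add spots chosen by the 4 score genes to spots chosen by Myh1, Myh2, Myh4 and Myh7, so these 8 genes are given without a test and left out of the counts of lists. Members lay almost only in WT. The direction of other genes that go with the score or were higher in members is therefore fixed in part by that choice. Among them are Mymk, Mymx, Chrng, Tnnt2, Igf2, Dlk1, H19, Rian and Meg3. Their p-values below do not test muscle apart from it. Of the 7 other developmental contractile genes 5 were lower in F592A and 0 higher, with a median log2 fold change of -1.59, against -0.01 over all genes.

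Sln was at 30.8 and 23.1 CPM in F592A 1 and 2, against 303 and 413 CPM in WT 1 and 2, a log2 fold change of -3.73 ± 0.22 (adjusted p = 0.00487). The groups did not overlap, and the call held when any 1 section was left out, with adjusted p of 0.00328 to 0.0198. As a description, Myh7 was at 270.5 and 304 CPM in F592A, against 916 and 1197 CPM in WT, and Myh3 at 7.12 and 1.10 CPM in F592A and 449 and 180.0 CPM in WT. Myh8 was at 29.6 and 12.2 CPM in F592A and 249.5 and 87.4 CPM in WT, and Myl4 at 67.4 and 18.3 CPM in F592A and 669.8 and 271 CPM in WT. Actc1 was at 157 and 192 CPM in F592A and 529.6 and 131 CPM in WT, so the groups overlapped. Tnnt2 was lower at an adjusted p of 0.0441, with 11.5 and 1.65 CPM in F592A and 127 and 40.9 CPM in WT, and did not pass with DESeq2 (0.0840).

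Among the genes of differentiation and fusion, Myog was at 15.5 and 2.75 CPM in F592A 1 and 2 and 81.7 and 33.3 CPM in WT 1 and 2, which did not overlap and did not pass (-2.66 ± 0.65, adjusted p = 0.0624). Myod1 was at 23.7 and 17.3 CPM in F592A and 26.7 and 14.8 CPM in WT, with overlapping groups (-0.06 ± 0.28, adjusted p = 0.924), and Pax7 did not pass either (adjusted p = 0.750). Of 12 regulators 0 passed with edgeR and 1 with DESeq2, and 4 had an unadjusted p under 0.05. Mymk passed narrowly, at 5.73 and 0.962 CPM against 68.8 and 17.0 CPM (-3.70 ± 0.79, adjusted p = 0.0496, and 0.0913 with DESeq2). Mymx gave 1 and 0 UMIs in F592A and 212 and 18 UMIs in WT (adjusted p = 0.0392), too few in F592A for a fold. Chrng gave 3 and 1 UMIs against 172 and 30 UMIs (adjusted p = 0.0221). Chrna1 was at 16 and 11.1 CPM in F592A and 79.8 and 24.6 CPM in WT and did not pass (-1.98 ± 0.50, adjusted p = 0.0688).

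**Figure D5:**
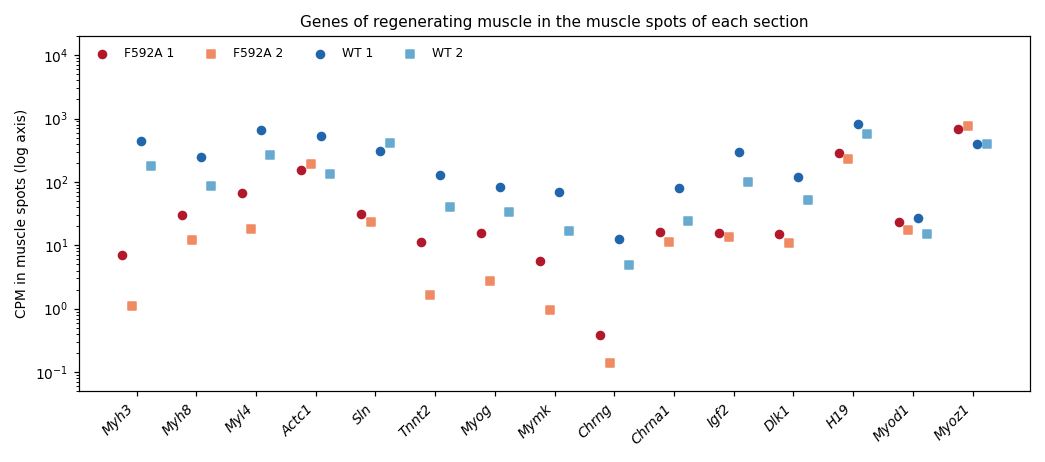
CPM of 15 genes in the muscle spots of each section on a log axis, F592A sections in reds and WT sections in blues. For Myh3, Myh8, Myl4, Sln, Tnnt2, Myog, Mymk, Chrng, Chrna1, Igf2, Dlk1 and H19 both F592A sections lie below both WT sections, Actc1 and Myod1 overlap, and Myoz1 is higher in F592A.

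Of 14 imprinted and growth genes 8 were lower in F592A muscle spots and 0 higher, with a median of -1.54. Their direction is fixed in part by the members, which lay almost only in WT. Together they made up 0.215 and 0.167% of UMIs in F592A 1 and 2 and 0.488 and 0.391% in WT 1 and 2. In adult muscle spots alone the shares were 0.214 and 0.167% in F592A and 0.271 and 0.356% in WT. Igf2 was at 15.6 and 13.3 CPM in F592A 1 and 2 and 301 and 99.4 CPM in WT 1 and 2 (-3.79 ± 0.50, adjusted p = 0.0197), and Dlk1 at 14.9 and 11 CPM against 120.2 and 51.9 CPM (-2.75 ± 0.39, adjusted p = 0.0225). The groups did not overlap for either gene. H19 had -1.43 ± 0.21 (adjusted p = 0.0225), Rian -1.69 ± 0.16 (0.0106) and Meg3 -1.35 ± 0.14 (0.0106). Of 8 slow muscle genes 5 were lower and 0 higher, among them Tnni1 and Tnnt1, and of 12 fast muscle genes 7 were higher and 0 lower, with medians of -1.3 and 0.76. The fast genes were low in members, which lay almost only in WT. With members, the 15 fast genes of the list made up 10.1 and 10.3% of UMIs in F592A 1 and 2 and 6.68 and 7.11% in WT 1 and 2. In adult muscle spots alone the shares were 10.1 and 10.3% in F592A and 9.89 and 8.12% in WT. The 9 slow genes were at 0.314 and 0.302% in F592A and 0.926 and 0.567% in WT there. Myoz1 was at 697 and 759.9 CPM in F592A and 402 and 398 CPM in WT (0.86 ± 0.13, adjusted p = 0.0244). Adult muscle spots of WT 1 and WT 2 alone held 785 and 497 CPM of it, as scaled in the comparison with members. In calcium handling Casq2 had -1.89 ± 0.32 and Atp2a2, the slow calcium pump, -1.28 ± 0.14. Many calls depended on 1 section: 47 genes of all tested passed without F592A 2, 13 without WT 1 and 156 without WT 2. Of 23 named or listed genes that passed, 5 were lost without F592A 1, 20 without F592A 2, 21 without WT 1 and 9 without WT 2. Igf2 was lost without F592A 2 (adjusted p = 0.125), Rian and Tnnt1 without WT 1 (0.0795 and 0.0749), and Dlk1, H19, Meg3, Tnni1, Chrng, Casq2, Atp2a2 and Mymk without F592A 2 or without WT 1. Tnnt2 and Myoz1 were lost without F592A 2, WT 1 or WT 2, and Mymx without F592A 1, F592A 2 or WT 1.

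Other tissue moved with this comparison. Of 6 adipocyte genes 4 were higher in F592A muscle spots, with a summed share of 0.0638 and 0.103% in F592A 1 and 2 against 0.0459 and 0.0403% in WT 1 and 2. Of 6 keratinocyte genes 3 were higher, with shares of 0.160 and 0.317% against 0.0758 and 0.0312%. Of 8 wound matrix genes 2 were lower, Tnc and Fn1, the other 6 had negative log2 fold changes, and the summed share was 5.53 and 3.99% against 6.88 and 9.08%. Of 8 tenocyte genes 0 passed with edgeR and 1 with DESeq2, with a median of -0.77 and shares of 0.279 and 0.161% against 0.306 and 0.402%. Of 9 macrophage genes 1 was lower, with shares of 0.154 and 0.117% against 0.197 and 0.190%. Their part in the results was not tested. In adult muscle spots alone, without any member, Sln was at 29.8 and 22.7 CPM in F592A 1 and 2 against 293 and 432 CPM in WT 1 and 2, and Myh3 at 5.49 and 1.08 CPM against 62.4 and 57.1 CPM. The groups did not overlap for either gene there. With members, 56.7% of all genes did not overlap in muscle spots. The share of all genes in adult muscle spots alone was not computed. In these spots wound matrix genes made up 5.50 and 3.99% in F592A 1 and 2 and 4.07 and 8.63% in WT 1 and 2. Tenocyte genes made up 0.273 and 0.161% against 0.165 and 0.364%, and macrophage genes 0.149 and 0.117% against 0.0966 and 0.150%. The groups overlapped for these lists there. They stayed apart for adipocyte genes (0.0642 and 0.103% against 0.0572 and 0.0430%) and keratinocyte genes (0.164 and 0.317% against 0.142 and 0.0371%).

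Over whole sections 13 of 16347 genes passed (0.0795%), among them Sln (-4.28 ± 0.15, adjusted p = 0.00351), Myh7 (-2.43 ± 0.12, adjusted p = 0.0126) and Igf2 (-3.31 ± 0.29, adjusted p = 0.0491). None of these passed when an F592A section was left out, where edgeR called 0 genes at an adjusted p under 0.05 and 1441 or 835 at an unadjusted p under 0.05. Myh3 was at 1.96 and 0.655 CPM in F592A 1 and 2 against 170.0 and 48.2 CPM in WT 1 and 2, given without a test since it chose the members. DESeq2 called 421 genes, or 2.58%. Dlk1, lower in F592A muscle spots, was at 124 and 47.8 CPM in F592A and 78.2 and 80.9 CPM in WT over whole sections (0.11 ± 0.41, adjusted p = 0.942). Of UMIs in the whole section, WT 1 and WT 2 members held 77.4 and 55.7% of Myog but 43.1 and 7.57% of Dlk1, while holding 17.3 and 4.28% of all UMIs.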

How the data were processed

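Per the file headers and labels, the data were Visium sections counted by Space Ranger 1.3.0. The submitters' processing notes name the build mm10 and Seurat 3. What the authors deposited are unnormalized UMI counts of 32285 genes in each tissue spot. Counts were summed per section, since spots are not replicates, and no spot was removed as a doublet. Whole-section sums used spots of at least 500 UMIs. Sums were tested with edgeR 4.0.16 (quasi-likelihood test, TMM scaling, filterByExpr, R 4.3.3, limma 3.58.1) with Benjamini-Hochberg adjustment over all genes tested and a threshold of 0.05, and again with DESeq2 1.42.0. CPM in the tests carry TMM factors, and other CPM do not. Motifs, positions and figures used Python 3.11.15, numpy 2.4.6, pandas 2.3.3 and matplotlib 3.10.9. The fits were checked on simulated counts.

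The members, the 14 pathway lists and the 17 marker lists were chosen with earlier results of these data known. Named genes were a fixed set (among them Sln, Igf2, Myog and Chrng), in members against adult muscle the 10 largest changes each way among called genes whose mean log2 CPM reached 5 and whose sections moved alike, and up to 4 genes per list by smallest p (3 in tests of F592A against WT). The groups share replicate numbers 1 and 2 in the labels. Deviations of same-numbered sections correlated at -0.15 in whole sections and 0.00 in muscle spots, so the numbers were not taken as pairs. Other names (Atp2a1, Casq1, Chrnd, Chrne, Eno3, Kirrel, Mstn, Tnnc1 and Tnnt1 against adult muscle, Tnni1 and Tnnt2 in F592A against WT) were chosen after their values were seen. Near-identical genes, such as Hba-a1 and Hba-a2, may share reads. Protein sequences were not used here.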

Additional observations from a re-analysis of the deposited data

How the results depend on the processing

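The share of spots that are members was lower in F592A under all 10 alternatives, by -3.59 (200 members) to -13.9 (800 members) percentage points, and none could reach a p under 0.05. Members against adult muscle gave 2899 calls, 681 with DESeq2, 1109 with 800 members (of which 23 lie in F592A 1) and 1101 without the section block (no replicate block). It gave 1581 against adult muscle spots without Myh3 or Myh8 UMIs, chosen after the data were seen, where Sln turned to 0.61 (adjusted p = 0.238). The cause was not tested. Of 66 named or listed genes called, 26 were lost with 800 members, 16 with DESeq2 and 12 without the block. Leaving out a section leaves 1 and no test. Top2a turned to 0.068 with an adult myosin share of 1% and 0.11 with at least 5000 UMIs, and Tnnc1 to -0.20 with 800 members. Muscle spots gave 586 calls, 2392 with no filter, 1428 with an adult myosin share of 1% and 13 to 790 when a section was left out. There, leaving out a section, Actc1 ranged over -1.60 to 0.41, Myod1 over -0.38 to 0.46 and Pax7 over -0.80 to 0.094, with positive values without WT 1 (Actc1, Myod1) and without F592A 2 (Myod1, Pax7), and Myod1 was at 0.18 with an adult myosin share of 1%. Whole sections gave 13 calls, 5 with RLE scaling, 421 with DESeq2, 546 with no filter and 0 to 390 when a section was left out. Leaving out a section, Dlk1 ranged over -0.73 to 0.64 and Myod1 over -1.19 to 0.067.

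With the replicate number as a block, which the labels do not tie to a shared animal or batch, whole sections gave 7 calls and muscle spots 1037. The crossed pairing, added after the data were seen, gave 189 calls in whole sections. Dlk1 in whole sections was at -0.041 with the block and -0.043 with the crossed pairing. With 2 sections a group, depth limits genes of a few UMIs per section, such as Mymx, Chrng and Pax7.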

Other observations

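Genes of myelinating Schwann cells were placed differently around the members of the WT sections. Mbp, a myelin protein, was at 27.4 CPM in WT 1 members and 40.7, 66.9, 206 and 386 CPM at 1, 2, 3 and 4 to 6 array steps. In WT 2 it was at 62.8 CPM in members, 419 CPM at 1 step, 195 CPM at 2 steps, 48.6 CPM at 3 steps and 27.1 CPM at 4 to 6 steps. The highest value thus lay directly beside the members in WT 2 and several steps away in WT 1. The 7 Schwann cell genes together followed the same order, at 0.366% of UMIs at 1 step in WT 2 and 0.344% at 4 to 6 steps in WT 1, against 0.0468 and 0.0326% in the members of the same sections. No test was made, since each WT section is 1 sample.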
